A study of Mus musculus with 30 samples.

Results

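The genes described here are the potassium channel genes of the mouse, taken as every symbol in the count tables that begins with Kcn followed by a family letter and a number. Of 94 such symbols among 22609 genes, 81 were kept because they were selected on their own level: each had a mean of at least 1 CPM (the read count scaled to sequencing depth, here the library's reads in genes) in the dorsal root ganglion (DRG) libraries or in the paw libraries. Of these, 44 passed in both tissues, 34 in DRG alone and 3 in paw alone (Kcne1l, Kcne3 and Kcnk7). The same 81 genes passed when only the vehicle libraries were averaged. Just inside the threshold were Kcng1, Kcna5 and Kcna3, whose higher tissue mean was 1.78, 1.84 and 1.88 CPM. Just outside were Kcnh3, Kcnk9 and Kcnj14 at 0.936, 0.686 and 0.452 CPM. Of the 81, Kcnq1ot1 is an antisense RNA transcribed across Kcnq1 that encodes no channel, and it was kept because the rule reads symbols.

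RNA was sequenced from DRG, the ganglia that hold the cell bodies of sensory neurons, and from hind paw of C57BL/6J mice aged 10 to 12 weeks, in 30 libraries that form 10 groups of 3. Females and males received prolactin (PRL, 1 µg) or vehicle (Veh, which the protocol gives as PBS) injected into the paw, and the 8 PRL and Veh groups were made from rRNA-depleted RNA. The other 2 groups, PRL_Sh, are female DRG and female paw libraries made from mRNA with another kit. The protocol lists both a single injection and 1 injection a day for 12 days and does not say which animals received which. What Sh stands for is not explained in the labels. By the labels 18 libraries are female and 12 male, the reverse of the numbers in the series' design text, and the labels were followed. No label says that replicates came from separate animals, so the spread behind each p-value is that of these libraries and may be technical. Gene reads numbered 6866545 to 13470783 per rRNA-depleted library and 21795035 to 26515208 per PRL_Sh library. In 1 male vehicle paw library, replicate 2, only 13.6% of reads fell in genes, against 22.3% to 28.1% in the other rRNA-depleted libraries. The neuronal marker list was at 7372 to 9692 summed CPM in rRNA-depleted DRG libraries, at 12361 to 13679 in PRL_Sh DRG libraries and at 79.3 to 141 in paw libraries. Skeletal muscle markers varied within groups in both tissues, from 290 to 27678 summed CPM in rRNA-depleted DRG libraries and from 2687 to 137889 in paw, and values that move with them are given below.

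Potassium channels let potassium leave the cell and so set the resting potential and end the action potential. Voltage-gated Kv alpha subunits form the pore as tetramers, with Kv beta, KChIP and KCNE proteins attached as accessory subunits, and modifier alpha subunits join Kv2 pores without forming channels alone. Inward rectifiers (Kir) and tandem-pore channels (K2P) carry background current, while BK, SK and IK channels open with calcium and Slack with sodium. In sensory neurons the loss of Kv current is known to raise excitability, and in macrophages and T cells Kv1.3 and the IK channel are known to support activation.

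As a description of levels, with no test because they chose the genes, 65 of the 81 genes had the higher mean in DRG and 16 in paw over the 12 rRNA-depleted libraries of each tissue. In DRG 44 genes stood more than 10 times above paw. Together the 81 genes held 0.507% to 0.608% of gene reads in rRNA-depleted DRG libraries and 0.073% to 0.113% in paw. Kcna1, which encodes Kv1.1 of axons, was the highest channel gene in DRG at 1405 CPM (range 1212 to 1589 over 12 libraries) and also the highest per kb of exon, at 318 CPM per kb. By group its DRG mean was 1335 ± 76.6 CPM in female PRL, 1497 ± 83.4 in female Veh, 1306 ± 81.4 in male PRL and 1481 ± 50.2 in male Veh (SD, n = 3 each). In paw the corresponding means were 57.5 ± 6.89, 73.0 ± 8, 48.9 ± 4.23 and 66.3 ± 1.08 CPM. Kcna1 was thus lower with PRL in all 4 pairs of groups, and the tests of that difference are given below. In the mRNA libraries it measured 751 ± 23.3 CPM in DRG and 38.5 ± 7.81 in paw.

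Per kb of exon, Kcna1 was followed in DRG by the accessory subunits Kcnab2 (Kvβ2, 142 CPM per kb) and Kcnip3 (KChIP3, 49.1), and then by Kcna6 (Kv1.6, 39.4), Kcnip4 (KChIP4, 38.2), the K2P channel gene Kcnk1 (TWIK-1, 36.1) and Kcnab1 (Kvβ1, 34.9). Lower on the same scale stood Kcnt1, the sodium-activated Slack channel, at 26, Kcna2 (Kv1.2) at 25.6 and Kcnd3 (Kv4.3) at 22.9 CPM per kb. Over the 12 DRG libraries Kcna2 varied least of all 81 genes, from 285 to 338 CPM (coefficient of variation 4.78%), and Kcnt1 varied most of those just named, from 125 to 194 CPM (13.0%). Of the Kv7 genes of the M-current, Kcnq5 had 35.8 CPM and Kcnq3 19.0. Kcnk18, which encodes TRESK of sensory neurons, had 13.2 CPM in DRG (range 11.8 to 16) and no read in 12 paw libraries, where 3 reads would have been 0.0227 CPM. Kcnj9 (Kir3.3), at 1.27 CPM in DRG, likewise had no read in those paw libraries. The largest ratios of DRG to paw among genes read in both were those of Kcnh5 (an EAG channel, 758), Kcnh7 (ERG3, 513), Kcnb2 (Kv2.2, 502), Kcnip1 (KChIP1, 482) and Kcns2 (the modifier Kv9.2, 470), and for Kcnh5 and Kcns2 the paw mean rested on 0.0299 and 0.00619 CPM.

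The other DRG families had 1 or a few leading genes each. Kcnb2, of the delayed rectifier family Kv2, had 196 CPM, and 4 modifier genes, Kcns3 (Kv9.3), Kcns1 (Kv9.1), Kcng3 (Kv6.3) and Kcnv1 (Kv8.1), stood at 35.2 to 40.4 CPM. Kcnc1, of the fast Kv3 family, had 83.5 CPM and Kcnd1 (Kv4.1, 79.2 CPM) followed Kcnd3 among the A-type genes, while Kcnd2 (Kv4.2) had 2.83 CPM. Of the ERG and EAG genes, Kcnh7 had 128 CPM, Kcnh2 (ERG1) 71.0 and Kcnh1 (EAG1) 60.2. Among background channels, Kcnj10 (Kir4.1, the channel of satellite glia) led Kir at 86.5 CPM, and Kcnk1 led K2P at 80.8 CPM, ahead of Kcnk5 (TASK-2) and Kcnk2 (TREK-1), both at 23.4. Kcnma1 (the BK pore) had 53.0 CPM and Kcnn1 (SK1) 25.8. The KCNE subunits were low, with Kcne4 highest at 3.71 CPM.

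The paw profile was led by other genes. Kcnk6 (TWIK-2), a K2P channel, had the highest level per kb in paw at 16.3 CPM per kb, followed by Kcna1 at 13.9 and Kcnn3 (SK3) at 10.5. Kcnk6 ranged from 51.1 to 83.1 CPM over the paw libraries and from 3.12 to 7.37 in DRG, so the tissues did not overlap. Kcnk7, a K2P family member, had 6.12 CPM in paw and 0.0612 in DRG, and Kcnj15 (Kir4.2) had 25.2 and 2.21 CPM. Kcnn3, at 30.2 CPM in paw against 5.81 in DRG, and Kcnq1 (Kv7.1 of epithelia and heart), at 4.72 against 0.978, complete the 5 genes lowest in DRG relative to paw. Summed per kb over their members, the K2P genes led in paw at 34.6 CPM per kb (66.1 in DRG), followed by Kir at 27.3 (48.3 in DRG), Kv1 at 23.5 (396 in DRG) and SK and IK at 18.2 (14.9 in DRG). Kcnj2 (Kir2.1), Kcnc1 (Kv3.1) and Kcnq5 led their families in paw at 38.9, 40.3 and 15.7 CPM. Of the 3 KCNE genes, Kcne1l and Kcne3 passed the rule in paw alone, so their higher mean there follows from it. Kcne4 had 4.58 CPM in paw and 3.71 in DRG, and 3.80 and 4.02 in the mRNA libraries.

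**Figure D1:**
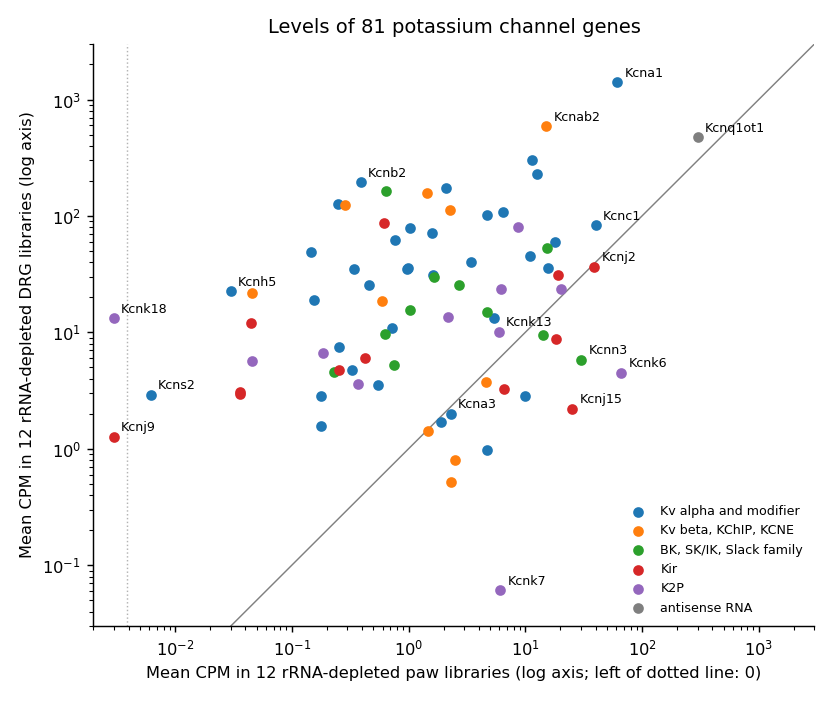
Mean level of each of the 81 genes in paw (horizontal, CPM, log axis) and DRG (vertical, CPM, log axis), averaged over 12 rRNA-depleted libraries per tissue and coloured by subunit class; the diagonal marks equal levels. In DRG 65 genes lie above the diagonal, Kcnk6, Kcnk7 and Kcnj15 lie far below it, and 2 genes had no read in paw.

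Injection of PRL was compared with Veh first in the injected paw, where 52 of the 81 genes had enough reads to be tested. Kcna3 (Kv1.3, a channel of lymphocytes and macrophages) and Kcnk13 (THIK-1, a K2P channel of microglia and macrophages) rose in both sexes, as did the inward rectifier gene Kcnj12 (Kir2.2), while Kcnj15 fell in both. In females 5 of 52 genes passed the threshold (adjusted p under 0.05, edgeR's quasi-likelihood test with Benjamini-Hochberg adjustment over all genes), or 9.62%, where 7.55% of all tested genes passed. The 3 that rose compare with 6.54% of all genes and the 2 that fell with 1.01%. In males 11 of 52 passed, 21.2% against 22.4% of all genes, with 6 higher (12.3% of all genes) and 5 lower (10.1%). For the mean change over both sexes, 10 passed, 19.2% against 24.9%, with 6 higher (14.9%) and 4 lower (10%). Taking both directions together, the share of channel genes lay near that of all genes in females and in males. The median log2 change of the channel genes was -0.06 in females and 0.04 in males, beside -0.01 and 0.02 for all genes tested.

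Kcna3 was low in every vehicle paw. On the TMM-normalised CPM scale it measured 1.23, 0.756 and 1.01 in the 3 female Veh libraries and 4.07, 2.35 and 2.72 in the 3 female PRL libraries. Male Veh libraries had 1.18, 0.935 and 1.22 and male PRL libraries 2.99, 4.85 and 4.46. Every PRL library thus stood above every Veh library, and the groups did not overlap in either sex. The log2 change was 1.61 (SE 0.31, adjusted p = 0.00806) in females and 1.84 (SE 0.303, adjusted p = 0.00169) in males. Kcna3 passed in each sex and on average under every alternative run.

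Kcnk13 followed the same pattern at a higher level. Its female libraries had 2.38, 3.27 and 3.29 CPM with Veh and 6.53, 7.15 and 6.10 with PRL, and its male libraries 4.21, 2.65 and 5.30 with Veh and 8.18, 9.17 and 13.1 with PRL. Neither sex overlapped, and replicate 3 of the male PRL libraries was the highest of the 12. The log2 change was 1.14 (SE 0.257, adjusted p = 0.0192) in females and 1.28 (SE 0.247, adjusted p = 0.00408) in males. The female call was lost without PRL replicate 1, without PRL replicate 2 and without any 1 of the 3 female Veh libraries, with an adjusted p of up to 0.0772.

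Both genes moved beside macrophage and leukocyte markers. In females 11 of the 12 macrophage and leukocyte markers rose and none fell, and in males 10 rose and 1 fell. Their summed level was 1275 to 2067 CPM with PRL against 528 to 738 with Veh in females, and 1484 to 1775 against 663 to 1072 in males. Of 10 fibroblast and matrix markers 5 rose in each sex. The part of these cells in the channel changes was not tested. In bulk tissue, more cells of a type and more RNA per cell cannot be told apart.

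Kcnn4, which encodes the IK channel of leukocytes and other non-excitable cells, and Kcnab2 passed only for the mean over sexes, with log2 changes of 0.49 (SE 0.121, adjusted p = 0.0115) and 0.60 (SE 0.15, adjusted p = 0.0123). Kcnn4 libraries measured 16.5, 11.3 and 14.4 CPM with PRL and 11, 9.49 and 8.77 with Veh in females, and 16.5, 22.1 and 18.4 against 15.6, 13.7 and 12.1 in males. The groups lay as close as 11.3 and 11 CPM but did not overlap in either sex. Kcnab2 was 15.2 to 23.2 CPM with PRL and 10.4 to 14.7 with Veh in females, and 14.0 to 21.8 against 10.8 to 13.7 in males.

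Among the inward rectifiers, Kcnj12 had 13.6, 12.0 and 13.9 CPM in female Veh libraries and 18.3, 17.9 and 17.8 in female PRL libraries. In males it had 18.1, 20.3 and 18.3 with Veh and 31.1, 27.0 and 23.9 with PRL. The PRL libraries were the higher ones in both sexes, with a log2 change of 0.45 (SE 0.116, adjusted p = 0.035) in females and 0.54 (SE 0.114, adjusted p = 0.00681) in males. Kcnj15 went the other way: Veh libraries had 26.1, 29.0 and 22.8 CPM in females and 39.0, 35.7 and 34.3 in males, and PRL libraries 19.1, 16.3 and 20.5 and then 20.1, 21.8 and 18.6. Its level with PRL was alike in both sexes, and its log2 change was -0.48 (SE 0.123, adjusted p = 0.0353) in females and -0.85 (SE 0.123, adjusted p = 0.000761) in males. The female calls of Kcnj12 and Kcnj15 were lost when the 6 female libraries were fitted alone and when replicate numbers were used as a block. That of Kcnj12 was also lost with no filter and without any 1 of those 6 libraries, and that of Kcnj15 without PRL replicate 1 or 2 or Veh replicate 1 or 2. The highest adjusted p over all alternatives was 0.152 for each. Both genes passed in males under every alternative run.

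**Figure D2:**
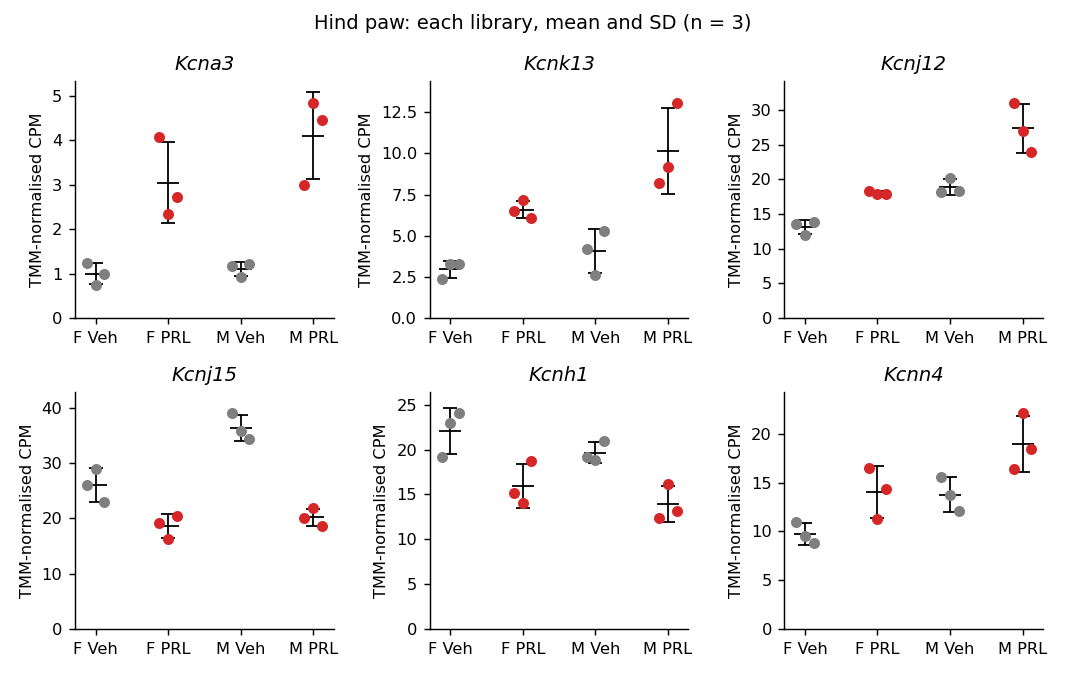
TMM-normalised CPM of 6 channel genes in each rRNA-depleted paw library, by sex (F, M) and injection (Veh grey, PRL red), with the mean and SD of 3 libraries in black. Kcna3, Kcnk13, Kcnj12 and Kcnn4 are higher with PRL and Kcnj15 and Kcnh1 lower, without overlap between PRL and Veh in either sex.

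The promoters of the 4 genes that passed in both sexes are shown because these genes lead the paw comparison, 3 of them higher with PRL and Kcnj15 lower. The windows hold 250 bases before and 50 bases after the start of the gene and come from RefSeq on GRCm38.p6, all on the plus strand: Kcna3 at chr3:107035912-107036211, Kcnk13 at chr12:99964249-99964548, Kcnj12 at chr11:61065554-61065853 and Kcnj15 at chr16:95257308-95257607. Capitals mark each match, on either strand, to GAGGAA, a longer form of the ETS-family core GGAA, as in sites of PU.1 of macrophages. The core GGAA alone is not marked, and it also occurs in the Kcnj15 window.
Kcna3: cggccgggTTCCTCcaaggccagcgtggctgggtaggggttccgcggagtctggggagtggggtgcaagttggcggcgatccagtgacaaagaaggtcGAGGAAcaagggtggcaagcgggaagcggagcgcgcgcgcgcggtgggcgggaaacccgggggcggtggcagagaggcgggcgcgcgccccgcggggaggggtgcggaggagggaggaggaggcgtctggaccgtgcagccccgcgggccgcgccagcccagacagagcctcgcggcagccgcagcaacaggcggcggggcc
Kcnk13: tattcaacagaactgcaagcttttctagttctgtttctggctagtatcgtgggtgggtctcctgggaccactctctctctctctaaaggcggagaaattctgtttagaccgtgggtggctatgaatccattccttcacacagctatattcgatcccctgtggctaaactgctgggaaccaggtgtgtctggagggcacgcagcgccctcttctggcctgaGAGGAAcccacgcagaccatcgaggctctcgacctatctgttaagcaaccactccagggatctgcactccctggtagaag
Kcnj12: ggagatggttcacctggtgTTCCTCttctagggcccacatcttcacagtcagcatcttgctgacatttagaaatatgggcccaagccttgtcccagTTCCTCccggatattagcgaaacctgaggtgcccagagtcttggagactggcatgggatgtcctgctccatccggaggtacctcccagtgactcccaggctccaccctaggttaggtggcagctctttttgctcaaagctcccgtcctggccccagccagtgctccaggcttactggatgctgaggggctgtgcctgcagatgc
Kcnj15: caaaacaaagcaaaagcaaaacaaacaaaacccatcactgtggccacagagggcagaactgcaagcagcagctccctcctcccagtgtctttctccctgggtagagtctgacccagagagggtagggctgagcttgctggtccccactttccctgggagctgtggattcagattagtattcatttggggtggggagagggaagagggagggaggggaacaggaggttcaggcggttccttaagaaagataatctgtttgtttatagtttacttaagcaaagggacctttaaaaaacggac
The longer form GAGGAA was present in the windows of Kcna3 (2 matches), Kcnj12 (2 matches) and Kcnk13 (1 match) and absent from that of Kcnj15. Of the 61 channel genes with a window, 23 (37.7%) held it, beside 31.3% of all 27025 genes with one. The STAT motif TTCNNNGAA, the kind of site that factors downstream of the prolactin receptor bind, was in none of the 4 windows, in 8 of 61 channel genes (13.1%) and in 9.55% of all genes. ACANNNTGT, the kind of site that the glucocorticoid receptor binds, was likewise in none of the 4, in 4 of 61 (6.56%) and in 7.9% of all genes. With no match to the other motifs, no overlap between motifs arose in these windows. A match is a description of letters and not a bound site.

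Other calls in paw were made in 1 sex or for the mean over sexes. Kcnj8 (Kir6.1, the KATP pore of vascular smooth muscle) fell in females by 0.76 on the log2 scale (SE 0.193, adjusted p = 0.0337), from 8.73, 8.06 and 5.67 CPM to 4.33, 4.99 and 3.94. This call was lost in 6 of 13 alternatives, namely the replicate block, the female libraries alone, and without PRL replicate 1 or 3 or Veh replicate 1 or 2 (adjusted p up to 0.124). In males it measured 7.01 to 7.26 CPM with Veh and 5.91 to 8.05 with PRL, and the difference between the sexes had an adjusted p of 0.282. Kcnk1 fell in males by 0.70 (SE 0.186, adjusted p = 0.0197), from 15.2, 12.9 and 15.3 CPM to 10.6, 9.96 and 6.30, and Kcnk7 by 0.74 (SE 0.213, adjusted p = 0.0272). In females Kcnk1 had 5.35 to 6.66 CPM with PRL and 5.47 to 6.72 with Veh. Kcnh1 and Kcna1 fell in males by 0.50 and 0.41 (adjusted p = 0.0295 and 0.0366). The male call of Kcna1 was lost in 7 of 12 alternatives, the muscle covariate, the replicate block and every male library left out except PRL replicate 1. Those of Kcnh1 and Kcnk7 were lost in 4 of 12 and that of Kcnk1 in 3 of 12, each by leaving out 1 male library: PRL replicate 3, Veh replicate 1 or Veh replicate 3 for all 3 genes, and also PRL replicate 1 for Kcnh1 and PRL replicate 2 for Kcnk7. On average over sexes Kcnh1 fell by 0.49 (SE 0.103, adjusted p = 0.00522), from 18.9 to 24 CPM with Veh to 12.3 to 18.7 with PRL, and Kcna1 by 0.37 (SE 0.088, adjusted p = 0.00927), and both averages passed under every alternative run. Neuronal markers lay beside the fall of Kcna1: 4 of 9 tested fell on average and none rose, and their summed level was 82.5 to 91.9 CPM with PRL and 107 to 141 with Veh in males, and 83.8 to 88.9 against 79.3 to 123 in females, where the groups overlapped. Keratinocyte markers fell in males (6 of 11, summed level 35048 to 46379 CPM against 57501 to 67451) and 0 of 11 passed in females. The parts of these markers in the changes were not tested.

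Kcnj2 and Kcnd1 rose in males, by a log2 change of 1.25 (SE 0.375, adjusted p = 0.0333) and 1.1 (SE 0.33, adjusted p = 0.0326). Kcnj2 had 115, 48.2 and 59.3 CPM in male PRL libraries against 19.2, 39.1 and 36.0 with Veh, and Kcnd1 stood at 1.07 to 1.59 CPM against 0.489 to 0.779. The Kcnd1 call held in 4 of 12 alternatives and was lost with DESeq2, with no filter, with the male libraries fitted alone and without any 1 male library except Veh replicate 2. The Kcnj2 call was lost with replicate numbers as a block and without PRL replicate 1 or 3 or Veh replicate 1 or 3, with an adjusted p of up to 0.164. It held with the muscle list as a covariate. Kcnj2 is a channel of skeletal muscle, and muscle markers were at 137889, 63334 and 86850 summed CPM in those male PRL libraries and at 17616, 86316 and 65004 with Veh. The library with the most muscle RNA, male PRL replicate 1, had the highest level of 10 of the 52 channel genes, and the library with the least, female PRL replicate 3, the lowest level of 16. Of the 9 genes that did both, Kcna7, Kcnc1, Kcne1l, Kcnj11, Kcnj2, Kcnma1 and Kcnq5 are examples. The share of all genes at these extremes is not given, so these counts do not set channel genes apart. Kcnj11 (Kir6.2, the KATP pore of muscle), for example, ran from 0.563 to 52.9 CPM, and its log2 change in males of 1.27 (SE 0.821, adjusted p = 0.294) did not pass. With the muscle list as a covariate the counts of channel genes past the threshold were 6 in females, 12 in males and 14 on average. The share of all genes in those fits is not given beside them, so these counts are no result about channel genes alone. In fits with no covariate, the female count fell to 1 without PRL replicate 1 or Veh replicate 1 or 2. The male count fell to 4 without PRL replicate 3 or Veh replicate 1 or 3, and to 7 without PRL replicate 2. Kcnq1ot1 rose in males by a log2 change of 0.37 (SE 0.105, adjusted p = 0.0264), from 260 to 302 CPM to 339 to 382. This call was lost with no filter and in each run that left out 1 male library except that without Veh replicate 2. On average over sexes Kcnq1ot1 rose by 0.28 (adjusted p = 0.0161 by edgeR's test), a call lost only without male PRL replicate 1. Its exons overlap those of Kcnq1 by 121 bases on the other strand, and whether counting used strand is not given in the sources used here.

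**Figure D3:**
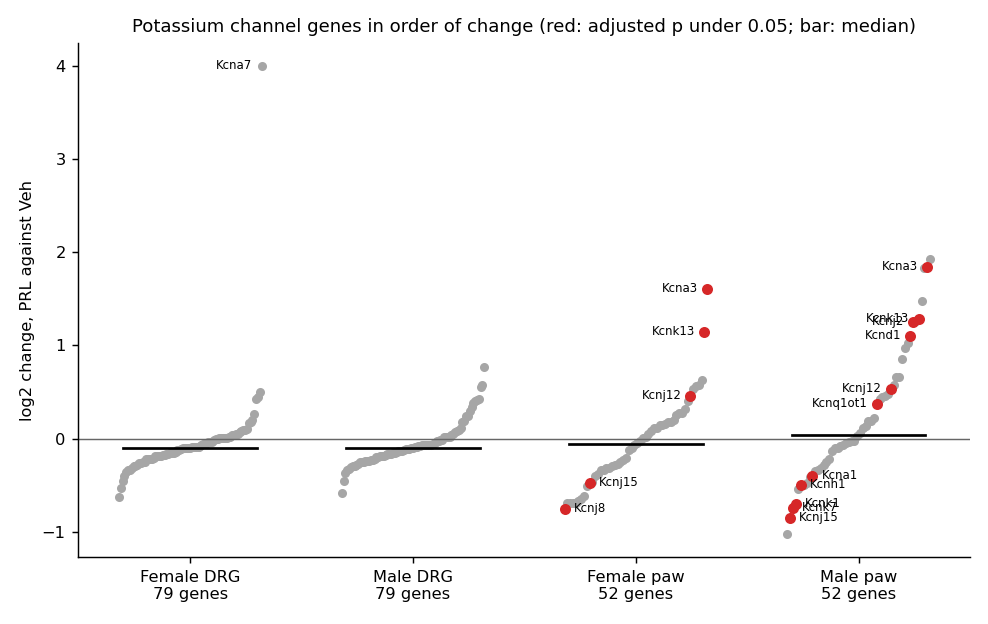
Log2 change (PRL against Veh) of every channel gene tested, in order of change within each sex and tissue; red points passed adjusted p under 0.05 and the bar is the median. No gene is red in DRG, 5 are in female paw and 11 in male paw, and the medians in DRG lie near -0.1.

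In DRG no channel gene passed with PRL, and most lay slightly below vehicle. Of 79 genes tested, 0 passed in females, where 0.653% of all genes passed, 0 in males (0.517% of all genes) and 0 for the mean over sexes (3.6%), by edgeR's quasi-likelihood test. At an unadjusted p under 0.05 the counts were 12 in females (15.2%, beside 12% of all genes), 15 in males (19%, beside 14.9%) and 21 on average (26.6%, beside 21.5%). DESeq2 called 0 in females, 2 in males (Kcnab1 and Kcna1) and 5 on average. Its share of all genes is not given beside these counts, so they do not set channel genes apart. Log2 changes were negative for 55 of 79 genes in females (69.6%, beside 50.7% of all genes), for 56 in males (70.9%, beside 49.1%) and for 58 on average (73.4%, beside 50.1%). The median change was -0.10 in each sex, beside -0.0028 in females and 0.0039 in males for all genes. Genes of 1 tissue share cells and libraries, so these shares are a description.

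Several of the most abundant neuronal channels stood just outside the threshold on average over sexes. Kcnd3 had 149, 149 and 167 CPM in female PRL libraries against 170, 189 and 194 with Veh, and 157, 180 and 169 against 195, 173 and 200 in males. The female groups did not overlap and the male groups did. Its average log2 difference was -0.21 (SE 0.053, adjusted p = 0.0503). Kcnt1 showed the same order, at 128 to 151 CPM against 156 to 187 in females and 150 to 171 against 160 to 196 in males, with an average of -0.26 (SE 0.066, adjusted p = 0.0515). Kcnab1 (100 to 110 CPM against 115 to 121 in females, 95.8 to 111 against 112 to 134 in males) and Kcna1 (1278 to 1378 against 1401 to 1573, and 1211 to 1370 against 1444 to 1542) did not overlap in either sex. Their averages were -0.20 (SE 0.052, adjusted p = 0.0523) and -0.17 (SE 0.043, adjusted p = 0.0547). In the other direction stood Kcnh8 (ELK1), at 7.95 to 9.45 CPM against 5.60 to 6.77 in females and 6.70 to 9.52 against 5.69 to 7.18 in males, with 0.43 (SE 0.115, adjusted p = 0.0581). How many genes passed on average depended on the libraries: 11 passed without female Veh replicate 1, 5 without male Veh replicate 2, 3 without female PRL replicate 3 or without male PRL replicate 2, and 1 without female PRL replicate 1 or without male PRL replicate 3. The share of all genes in these runs is not given beside the counts, so they do not set channel genes apart from other genes.

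**Figure D4:**
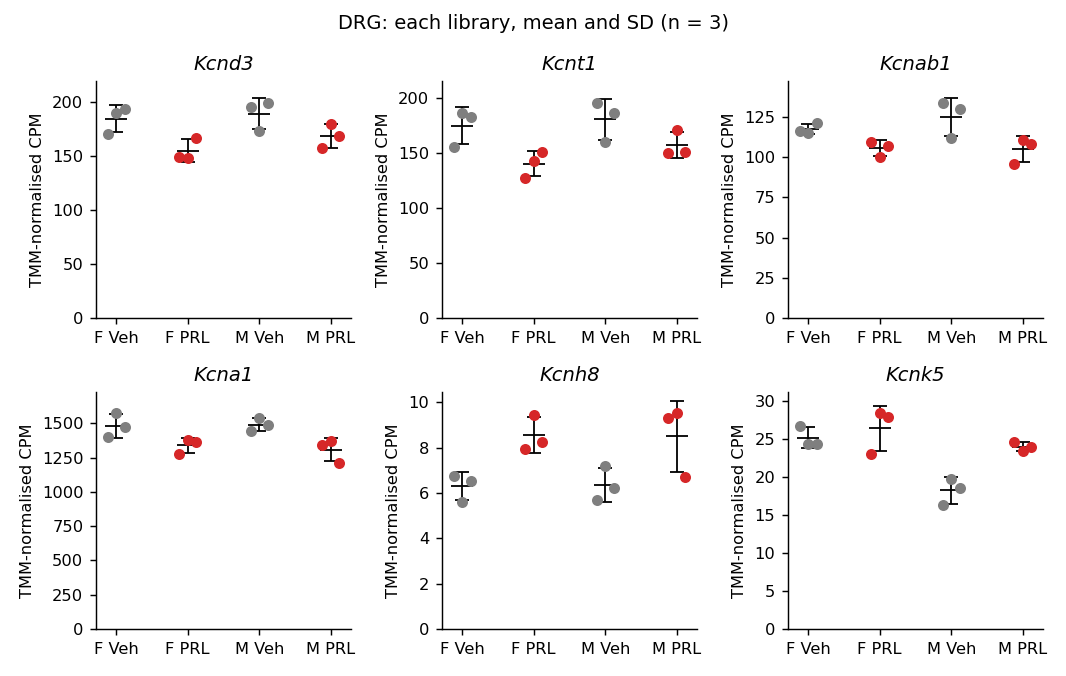
TMM-normalised CPM of 6 channel genes in each rRNA-depleted DRG library, by sex (F, M) and injection (Veh grey, PRL red), with the mean and SD of 3 libraries in black. Kcnd3, Kcnt1, Kcnab1 and Kcna1 lie lower with PRL and Kcnh8 higher, none past adjusted p under 0.05, and the male groups of Kcnk5 do not overlap.

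By family, every tested gene of several groups had a negative average log2 difference in DRG, none past the threshold. Among these groups were the 9 modifier alpha genes (median -0.17, range -0.43 to -0.07), the 4 BK genes (median -0.16), the 4 Kv3 genes (-0.12), the 4 KChIP genes (-0.12), the 3 Kv beta genes (-0.20) and the 3 genes of the Slack group (-0.16). Both tested KCNE genes lay above 0, Kcne1l at 0.18 (SE 0.317) and Kcne4 at 0.09 (SE 0.199). Kir genes were split, 6 of 12 negative, with a median of -0.02, and SK and IK genes likewise, 2 of 4. Of the M-current genes, Kcnq3 stood at -0.28 (SE 0.104, adjusted p = 0.147) and Kcnq5 at 0.03. TRESK (Kcnk18) was at -0.14 (SE 0.085), Kcna2 at -0.01 (SE 0.042), Kcna4 (Kv1.4) at -0.10, Kcnd1 at -0.12, Kcnip3 at -0.09 and Kcnma1 at -0.09. Kcns3 was at -0.21 (SE 0.072, adjusted p = 0.123) and Kcns1 at -0.07. The mechanically gated K2P genes Kcnk2, Kcnk4 (TRAAK) and Kcnk10 (TREK-2) were at 0.09, -0.14 and -0.18, and Kcnj10 at 0.06. The neuronal G-protein-gated genes Kcnj3 (Kir3.1) and Kcnj6 (Kir3.2) were at -0.12 (SE 0.124) and -0.37 (SE 0.254), and the KATP genes Kcnj8 and Kcnj11 at -0.16 and 0.19. Beside these values, 0 of 15 sensory neuron markers passed and their median average difference was -0.10. Their summed level was 7372 to 8666 CPM with PRL against 7689 to 9035 in females and 8199 to 8852 against 8610 to 9692 in males. Of 12 Schwann and satellite glia markers 2 rose in females and 1 in males, and their summed level was 25103 to 31987 CPM with PRL against 19866 to 22087 in females and 26509 to 29741 against 17084 to 23358 in males. Of 10 fibroblast and matrix markers 5 rose in each sex. The part of cell composition in the DRG values was not tested.

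In single sexes the smallest p-values in DRG were those of Kcnt1 (-0.32, adjusted p = 0.197), Kcnk13 (-0.40, adjusted p = 0.201), Kcnd3 (-0.25), Kcnk1 (-0.22) and Kcnh1 (-0.22) in females. In males they were those of Kcnk5 (0.40, adjusted p = 0.0971), Kcnab1 (-0.25), Kcnh5 (-0.34), Kcnmb1 (the BK β1 subunit, -0.29) and Kcna1 (-0.19). Kcnk13 had 7.95, 8.38 and 9.53 CPM in female DRG with PRL and 11.4, 11.2 and 11.5 with Veh, below vehicle where the paw was above it. The largest log2 difference, 4 for Kcna7 in females (SE 1.412, adjusted p = 0.283), came from 17.4 CPM in PRL replicate 1 and 2.23 in replicate 2 against 0.0953 to 0.975 with Veh. Kcna7 is known from muscle, and the muscle list was at 27678 and 4847 summed CPM in those libraries and at 335 to 1584 in the female Veh libraries.

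Whether females and males responded differently was tested as the female change minus the male change. In DRG 0 of 79 channel genes passed and 0% of all genes did, with 4 (5.06%, beside 3.65% of all genes) at an unadjusted p under 0.05 and 0 by DESeq2. The smallest p-values belonged to Kcnk5 (-0.33), Kcnj16 (Kir5.1, 0.52), Kcne4 (-0.91), Kcnn3 (-0.45) and Kcnj10 (0.27), all at an adjusted p of 0.993. In paw 0 of 52 passed and 0.00679% of all genes did, with 4 (7.69%, beside 13.1%) at an unadjusted p under 0.05 and 0 by DESeq2. The leading genes there were Kcnj2 (-1.57, SE 0.532, adjusted p = 0.278), Kcnj8 (-0.79), Kcnk1 (0.68), Kcnc4 (Kv3.4, -1.71) and Kcnd1 (-0.96). For Kcna3 the difference between the sexes' changes was -0.23 (SE 0.443), for Kcnk13 -0.14 (SE 0.359), for Kcnj12 -0.08 (SE 0.163) and for Kcnj15 0.37 (SE 0.174), none past the threshold.

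Vehicle-injected females and males were compared to give the levels without PRL. In DRG 0 of 79 passed (0.0544% of all genes), with 9 (11.4%, beside 6.83%) at an unadjusted p under 0.05 and 0 by DESeq2. Kcnk5 had the smallest p, at 26.7, 24.4 and 24.3 CPM in females and 16.3, 19.8 and 18.6 in males (log2 difference 0.47, SE 0.098, adjusted p = 0.49). With PRL the males had 24.6, 23.4 and 23.9 CPM, beside 23.0, 28.3 and 27.9 in females. Kcnj16 (-0.58), Kcnc2 (Kv3.2, -0.24), and Kcne4 (0.88) followed. In paw 1 of 52 passed, beside 0.109% of all genes: Kcnk1 had 5.47, 6.72 and 5.58 CPM in females and 15.2, 12.9 and 15.3 in males, a log2 difference of -1.30 (SE 0.192, adjusted p = 0.0268). The groups did not overlap, yet the call was lost without any 1 of the 6 vehicle libraries, at an adjusted p of up to 0.178. Below it stood Kcnj12 (-0.52), Kcnk2 (0.83), Kcnj15 (-0.48) and Kcnn4 (-0.50), none past the threshold.

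Partners and regulators of these channels outside the Kcn symbols were read from a list of 34 genes. In DRG 31 were tested. Sgk1, a kinase that controls the surface level of several Kv channels, fell in females by 1.25 (SE 0.186, adjusted p = 0.00789) and in males by 1.19 (SE 0.188, adjusted p = 0.0156) on the log2 scale, and no other partner passed in either sex. On average Rest, a repressor of neuronal genes, also rose, by a log2 change of 0.37 (adjusted p = 0.0111). In paw 2 of 29 rose in females and none fell, 5 rose and 2 fell in males, and 5 rose and 3 fell on average. Of all genes 6.54% rose and 1.01% fell in females, 12.3% and 10.1% in males, and 14.9% and 10% on average. Lgi3, a secreted protein of Kv1 complexes, rose by 3.08 in females and 2.61 in males, and Kctd12 by 0.80 and 0.82. Lgi2, the BK auxiliary gene Lrrc55 and Vapb rose in males, by 3.52, 1.94 and 0.59, and Dlg2, a scaffold of Kv1 channels, and Sgk1 fell there by 0.78 and 1.1. Akap5, an anchoring protein, fell on average by 0.52. The list's median change was -0.09 in DRG on average and 0.01 in paw.

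The PRL_Sh groups were compared with the female PRL groups, and here the label and the library kit cannot be told apart. In DRG 53 of 79 channel genes passed (67.1%, beside 61.6% of all genes), 26 higher and 27 lower, and in paw 26 of 54 (48.1%, beside 58.5%), 13 in each direction. Cell type markers differed in the same comparison: in DRG 11 of 15 sensory neuron markers were higher and 2 lower in PRL_Sh (median log2 difference 0.62), 9 of 10 fibroblast and matrix markers lower (-1.27) and 6 of 12 macrophage and leukocyte markers lower (-0.27). In paw all 12 macrophage and leukocyte markers (-2.37) and 8 of 10 fibroblast and matrix markers (-2.75) were lower. Their part in the channel values was not tested. Kcnq1ot1 was the lowest in both tissues, at 483 to 525 CPM in PRL and 4.33 to 5.19 in PRL_Sh libraries of DRG (log2 difference -6.91, adjusted p = 2.73e-08). Kcna3 had 76 reads in the 3 PRL libraries of DRG and 2 in the 3 deeper PRL_Sh libraries, a ratio of 91.7 in reads per gene read (95% exact interval 24.5 to 771, counting error only). Kcng3, Kcnh7 and Kcnb2 followed at -5.58, -4.97 and -4.71. The largest rises among called genes in DRG were those of Kcnab3 (Kvβ3, 1.73), Kcnj9 (1.47), Kcng2 (1.24), Kcnk4 (0.92) and Kcnt1 (0.83). For Kcnab3 and Kcnj9 PRL_Sh replicate 1 stood apart, at 10.5 and 7.64 CPM against 2 and 3.05 and against 2.73 and 2.60 in the other PRL_Sh libraries. Without it their log2 differences were 0.73 and 0.79 and did not pass, and both calls were also lost with replicate numbers as a block and without any 1 of the 3 PRL libraries. In paw Kcna3, Kcnt2 (Slick), Kcnab2 and Kcng3 had log2 differences of -4.35, -3.26, -2.21 and -2.07, and Kcnj11, Kcna7, Kcne1l and Kcnc4 of 3.07, 2.29, 2.04 and 1.75. The calls of Kcnj11, Kcna7 and Kcne1l were lost in 3, 4 and 5 of 10 alternatives and that of Kcnc4 in 1. Each of these rises was lost without PRL replicate 1, and all but that of Kcnc4 also with replicate numbers as a block. The muscle list was at 35051 to 68481 summed CPM in the PRL_Sh paws against 2687 to 59097 in the PRL paws, 9 of its 17 genes rose, and its part in the channel values was not tested. The paw count fell to 14 without PRL_Sh replicate 1, to 16 without PRL replicate 1 or without PRL_Sh replicate 3, and to 15 with replicate numbers as a block.

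The difference between PRL_Sh and PRL libraries in DRG went with transcript length. All 7 channel genes with more than 10000 bases of annotated exon were lower in PRL_Sh, with a median log2 difference of -4.45, beside 0.27 for the 72 shorter genes. Spearman's rho between exon length and the difference was -0.45 across 79 genes, as a description of these libraries. Kcna2, with 11906 bases of exon, fell from 285 to 299 CPM in PRL to 8.21, 30.7 and 8.33 in PRL_Sh libraries. Short genes were also among the lowest, such as Kcna3 with 1902 bases. Of all genes 61.6% passed in DRG and 58.5% in paw. The share that passed in both is not given, so the next counts do not set channel genes apart. Of the channel genes called in both tissues, 16 in all, 7 were lower in both, 4 higher in both and 5 went in opposite directions. Kcnk13 was one of those, 0.47 higher in DRG and 2.06 lower in paw (adjusted p = 0.0119 and 0.000224), where PRL_Sh paws had 1.68, 1.56 and 1.72 CPM and macrophage markers summed to 277 to 302 CPM.

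**Figure D5:**
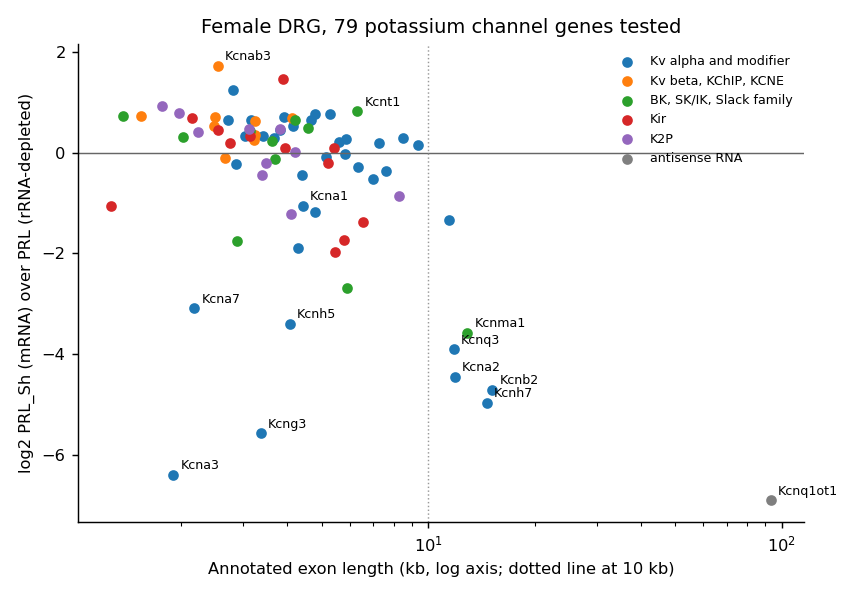
Log2 difference between PRL_Sh (mRNA kit) and PRL (rRNA-depleted) libraries of female DRG for the 79 channel genes tested, against annotated exon length (kb, log axis), coloured by subunit class; the dotted line marks 10 kb. All 7 genes to the right of the line lie below 0, and Kcna3 and Kcng3 lie as low with short exons.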

How the data were processed

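The deposited tables give whole-number read counts per gene for each library, made by the authors. Per the submitters' processing notes bcl2fastq, TopHat2, HTSeq and mm9 were used. For tool versions, counting mode and use of strand, nothing is given in the sources used here. The 5 summary lines of each table hold the reads outside genes and were left out of library sizes, and gene reads were 13.6% to 56.8% of all. Levels are CPM of gene reads. Each tissue's 12 rRNA-depleted libraries were fitted together with edgeR 4.0.16 in R 4.3.3 (filterByExpr, TMM, quasi-likelihood test, Benjamini-Hochberg adjustment over all genes, threshold 0.05), and PRL_Sh with PRL in a fit of 6 libraries. The scripts were tested on simulated data. The alternatives tried were no filter, RLE scaling, DESeq2 1.42.0, replicate numbers as a block, the muscle list as a covariate, only the groups compared, and each library left out. Levels in DRG against paw were not tested.

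Genes are named if they passed a PRL or sex comparison, if they had the 5 smallest p where fewer passed, if they led their family in level or in the DRG to paw ratio, if they were among the 5 largest PRL_Sh changes each way, or if they stood on a fixed list of neuronal and leukocyte channels. The members, lists and rule were chosen with earlier results of these data known. Some genes that the rule takes are not reported here. Promoter windows are RefSeq's on GRCm38.p6, which is not the build of the counts, and 61 of the 81 genes matched. Exon lengths are from the GENCODE basic annotation.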

Additional observations from a re-analysis of the deposited data

Results flagged for a closer look

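Kcnk13 in females stood out because its 2 tissues went in opposite directions. In DRG each of the 3 PRL libraries was below each of the 3 Veh libraries, with a log2 difference of -0.40 that did not pass the threshold, and in paw each PRL library was above each Veh library, with a log2 change of 1.14. The difference between the tissues was not tested.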

How the results depend on the processing

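No result changed direction under any alternative run, and counts moved by over 1.5 times as follows. In DRG, DESeq2 called 2 channel genes in males and 5 on average, and RLE scaling 2 on average. In female paw a fit of only the groups compared called 2. DESeq2 called 2 for females against males with vehicle in paw. The libraries sharing a replicate number were not paired by the labels, and in none of 14 pairs of groups were all 3 correlations of same-numbered libraries over 0.1. With the replicate block 1 gene passed on average in DRG, 2 in female paw, 0 for the sexes with vehicle in paw and 15 for PRL_Sh against PRL in paw, and the block moved no other count by over 1.5 times. Leaving out 1 library at a time gave 0 to 11 genes on average in DRG, 1 to 5 in female paw, 4 to 10 in male paw, 0 in each run for the sexes with vehicle in paw and 14 to 26 for PRL_Sh against PRL in paw. The number of genes higher in DRG was 65 in PRL_Sh libraries and 68 in Veh libraries, alternatives chosen after seeing the data, as was leaving male paw Veh replicate 2 out of the female comparison. The causes were not tested. Shares of all genes are not given beside these counts, so a moved count is not a result about channel genes alone. Low genes such as Kcna3, at about 1 CPM in vehicle paws, rest on few reads.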
